A study of Drosophila melanogaster with 4 samples.

Results

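The 51 genes described here carry the names of proteins of the large ribosomal subunit of Drosophila melanogaster, and 2 of them, RpL7-like and RpL24-like, are homologues of assembly factors. They are every annotated gene whose FlyBase symbol begins with RpL, with RpLP0, RpLP1 and RpLP2 included and with RpL22, RpL22-like, RpLP0-like and the mitochondrial mRpL genes left out. Of the 17023 genes in the count files, 48 were matched to these symbols by identifier, and 45 of them passed the filter on low counts and were tested. RpL19, RpL27A and RpL31 were not matched by identifier, so their read counts were not analysed here. They enter only the counts of promoter motifs, chromosome arms and snoRNA genes. The other 3 matched members were not tested: RpL10Aa and RpL7-like had 0 counts in all 4 libraries, and RpL37-2 had 1 read, in input 3.

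Poly(A) RNA was sequenced from ovaries of wild-type flies in 2 groups of 2 libraries. In the pulldown group, a mouse antibody against pseudouridine was added to the ovary homogenate and the bound RNA was recovered. In the input group, RNA came from a portion of homogenate kept aside without antibody. Both groups share genotype, tissue and poly(A) selection, and the titles number the libraries of each group 1 and 3. The labels give no age for the flies. A mock pulldown with non-specific antibody was not analysed here, so RNA that bound without pseudouridine cannot be told apart from RNA that carries it. Nothing in the labels says whether replicates 1 and 3 came from separate dissections, so p-values measure only the spread between these libraries.

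Ribosomal proteins of the large subunit fold around the large subunit rRNAs and hold the peptidyl transferase centre, the tunnel through which the new chain leaves, and the stalks that receive elongation factors and release tRNA. Pseudouridine, an isomer of uridine, is abundant in rRNA, where H/ACA guide RNAs direct its placement, and it also occurs in some mRNAs. Some of those guide RNAs lie in introns of ribosomal protein genes. In the ovary, germline nurse cells make ribosomes in bulk for the oocyte. In Drosophila, mRNAs of ribosomal proteins are known to begin at a polypyrimidine initiator, a short run of C and T around the start site that takes the place of the standard initiator.

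Of the motifs searched, TCTTT, the core of that initiator, was found in the most members when allowed anywhere within 20 bases of the start. The windows printed here are those of some related genes and of several members on which later values turn. The windows were read from the Release 6 genome (dm6 coordinates), each on the strand of its gene, from 60 bases before the start of the canonical transcript. Capitals mark TCTTT within 20 bases of the start, the core of the polypyrimidine initiator, TATCGATA, the DNA replication-related element, and GGTCACAC, the core of motif 1. RpL21, at chr2L:22247814-22247893 (minus strand), had 3 overlapping copies of TCTTT. RpL37-1, at chrX:15139348-15139427 (minus strand), had a single copy after the start and a DNA replication-related element near the upstream end of the window. RpL24 (chr2L:13395073-13395152 (minus strand)) and RpL4 (chr3R:27922761-27922840 (plus strand)) each had copies just after the start, and RpLP1 (chr2L:419892-419971 (plus strand)) had a copy of motif 1 upstream of its TCTTT. RpL24-like (chr3R:11431563-11431642 (minus strand)) had no TCTTT there. RpL34a (chr3R:26059248-26059327 (minus strand)) had it after the start, and RpL34b (chr3R:9401183-9401262 (minus strand)) had one copy before the start and one that begins on the base before it, with its C on the start itself. RpL10Ab (chr3L:11822791-11822870 (plus strand)) and RpL10Aa (chr3R:15037306-15037385 (plus strand)) had no marked motif in the windows shown.
RpL21: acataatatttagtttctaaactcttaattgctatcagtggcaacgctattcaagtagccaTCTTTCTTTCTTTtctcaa
RpL37-1: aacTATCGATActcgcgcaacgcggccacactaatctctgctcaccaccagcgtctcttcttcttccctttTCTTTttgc
RpL24: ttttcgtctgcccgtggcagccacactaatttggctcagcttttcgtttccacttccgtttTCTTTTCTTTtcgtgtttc
RpL24-like: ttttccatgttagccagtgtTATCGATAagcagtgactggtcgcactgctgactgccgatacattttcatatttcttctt
RpL34a: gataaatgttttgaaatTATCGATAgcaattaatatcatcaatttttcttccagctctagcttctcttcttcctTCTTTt
RpL34b: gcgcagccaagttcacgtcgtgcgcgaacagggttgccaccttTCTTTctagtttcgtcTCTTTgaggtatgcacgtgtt
RpL4: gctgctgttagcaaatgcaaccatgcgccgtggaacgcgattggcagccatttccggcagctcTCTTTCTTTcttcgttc
RpLP1: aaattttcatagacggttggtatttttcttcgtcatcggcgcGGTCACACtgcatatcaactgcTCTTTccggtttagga
RpL10Ab: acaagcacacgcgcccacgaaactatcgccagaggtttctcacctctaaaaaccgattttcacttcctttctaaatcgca
RpL10Aa: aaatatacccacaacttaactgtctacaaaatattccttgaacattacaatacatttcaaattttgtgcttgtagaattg

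TCTTT lay within 20 bases of the start, on the gene strand, in 30 of the 51 members (58.8%) and in 19 of 38 small subunit ribosomal protein genes (50%), against 715 of 13968 protein-coding genes (5.12%). The first copy began at or after the annotated start in 24 members and before it in 6, at a median of 3 bases after the start, and 14 members had at least 2 copies. A copy with its C exactly on the annotated start was present in 1 member, and one with its C within 2 bases of the start in 7 members (13.7%), against 0.544% of all protein-coding genes. The DNA replication-related element TATCGATA, searched on both strands from 250 bases before to 50 after the start, was found in 15 members (29.4%), against 8.94% of all genes, and GGTCACAC, likewise on both strands, in 8 members (15.7%), against 7.52%. TATAAA, on the gene strand from 45 to 15 bases before the start, was found in RpL39 alone (1.96%), against 8.94% of all genes, and TCAGT, the standard initiator, within 20 bases of the start in RpL23A alone, against 17.6%. These matches are descriptions of the windows, and the start used was that of the annotation.

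**Figure D1:**
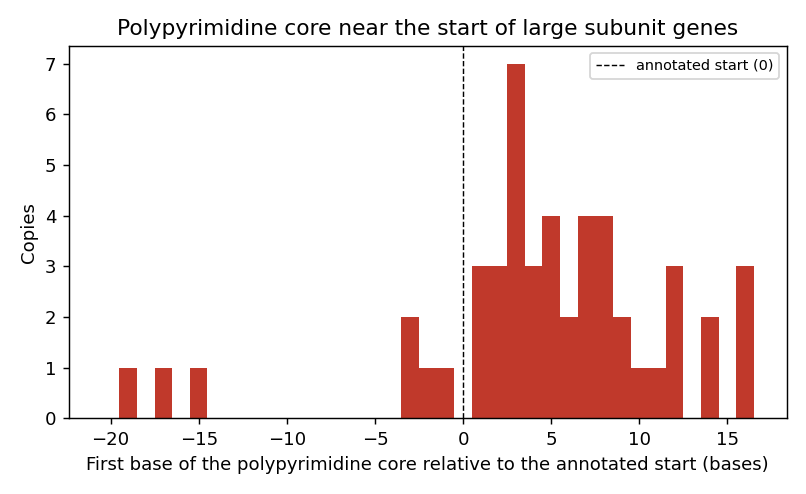
Position of each copy of the polypyrimidine core (TCTTT, first base, in bases) relative to the annotated start of the 30 large subunit genes that have it within 20 bases; bars count copies. The first copy of a gene lay between 19 bases before and 16 bases after the start, and in 24 of the 30 genes at or after it.

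The 45 tested members were among the most abundant mRNAs of the ovary. Levels were compared between genes as RPKM, the CPM of a gene (its counts scaled to a common library total) divided by the length of its merged exons in kilobases. Averaged over both inputs, all 45 lay above the 90th percentile of tested genes with an annotated exon length, and the lowest, RpL24-like, at the 96.4th percentile. The median member had 1450 RPKM in the inputs, and the highest member exceeded the lowest by 19.4-fold. The same span was 46.2-fold in pulldown 3, against 22.3-fold in input 1 and 23.9-fold in input 3. It was wider still in pulldown 1, where the lowest member, RpL38, rests on 29 reads, and that value is not reported here. Over the 27 members whose exons overlap no other gene, which leaves out RpL24-like, it was 9.91-fold in the mean of the inputs. The tested members with TCTTT near the start had a median input level of 1573 RPKM (29 genes) and those without it 1236 RPKM (16 genes). The ranges overlapped, at 603 to 5257 RPKM with it and 272 to 2580 RPKM without it.

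RpL41, a very short protein at the contact between the subunits, led the order with a mean input level of 5257 ± 2732 RPKM (SD, n = 2). In the 4 libraries it had 1259.5 and 20566 RPKM in pulldowns 1 and 3, against 3325 and 7189 RPKM in inputs 1 and 3. The inputs thus differed from each other by 2.16-fold and the pulldowns by 16.3-fold, and the groups overlapped. RpL21, a structural protein of the large subunit, had 2355 and 3217 RPKM in the pulldowns, against 2346 and 2985 RPKM in the inputs. Its 4 libraries lay closer together than those of RpL41, and the groups overlapped.

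RpL37-1, a zinc-binding protein, had 3088 and 1509 RPKM in pulldowns 1 and 3, against 4117 and 1135 RPKM in inputs 1 and 3. It ran opposite to RpL41: both libraries numbered 1 were above both numbered 3. RpL23, at the contact with the small subunit, had 860 and 6744 RPKM in the pulldowns, against 967 and 4193 RPKM in the inputs. Here both libraries numbered 3 were far above both numbered 1. The input means of RpL21, RpL37-1 and RpL23 (2666 ± 452, 2626 ± 2109 and 2580 ± 2281 RPKM, SD, n = 2) were closer to each other than the spread of the inputs, so their order is not resolved.

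At the low end, RpL24-like had 274 and 446 RPKM in the pulldowns, against 243 and 300.2 RPKM in the inputs. It is the homologue of a yeast factor that holds the place of RpL24 during assembly of the subunit and is not itself a protein of the finished ribosome. RpL38, whose mouse counterpart is known for its part in translating Hox mRNAs, was next, with 29.1 and 704 RPKM in pulldowns 1 and 3, against 185 and 876 RPKM in inputs 1 and 3. Its value in pulldown 1 rests on 29 reads, and its libraries numbered 3 exceeded those numbered 1 by 24.2-fold in the pulldowns and 4.74-fold in the inputs. No other member differed as much between the pulldowns.

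**Figure D2:**
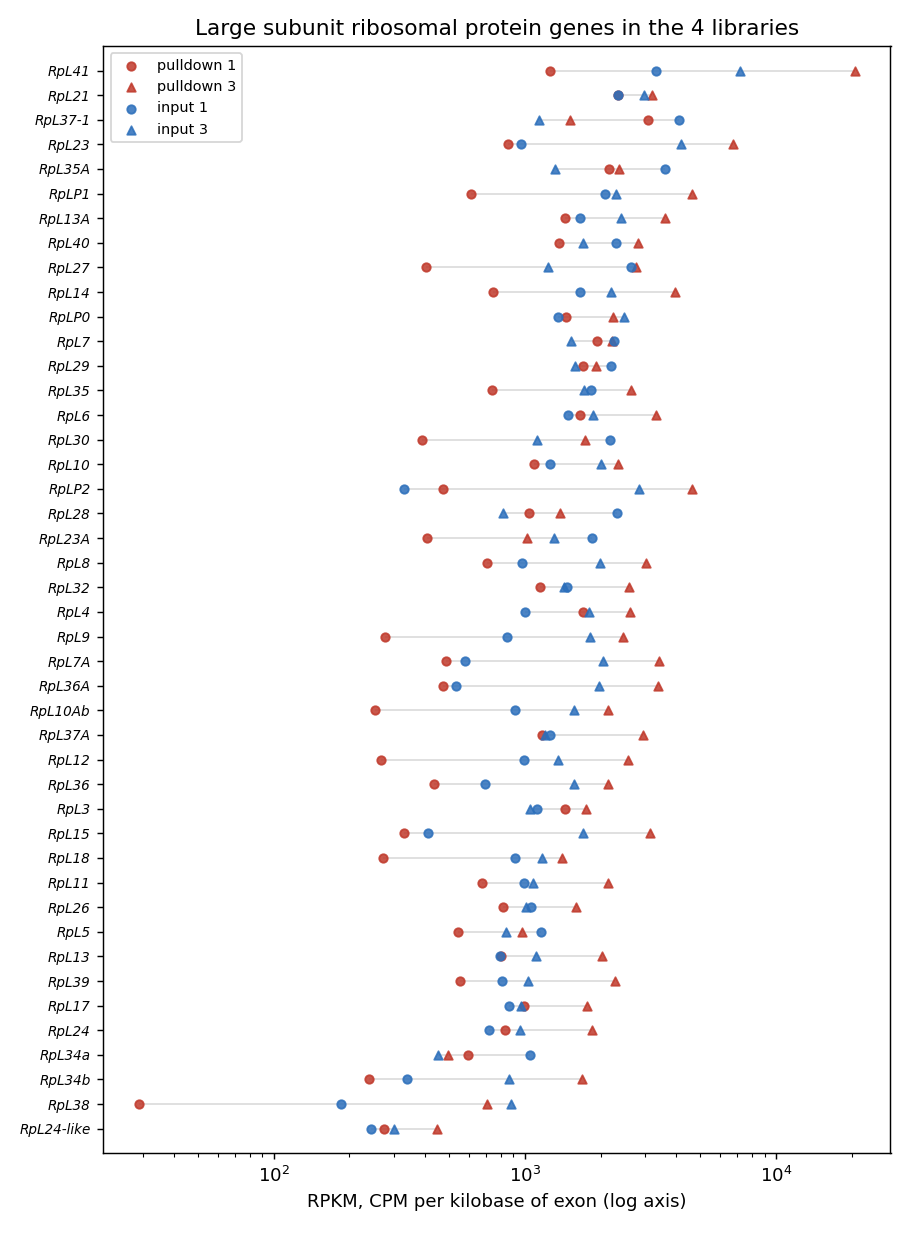
Level of 44 of the 45 tested large subunit genes (RPKM, log axis), ordered by mean input level, in pulldowns 1 and 3 (red circle and triangle) and inputs 1 and 3 (blue circle and triangle). RpL41 lies highest and RpL24-like lowest, and for many genes the triangles stand right of the circles in both colours.

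The replicates did not rank the members alike. Across the 45 members, log2 CPM (here on TMM-scaled library sizes) correlated with r = 0.46 between pulldowns 1 and 3 and r = 0.48 between inputs 1 and 3, against r = 0.78 between pulldown 1 and input 1 and r = 0.90 between pulldown 3 and input 3. Over all 7085 tested genes the pulldowns correlated with r = 0.62 and the inputs with r = 0.84. Over 33 small subunit genes it was r = 0.90 between the pulldowns and r = 0.83 between the inputs. The SD of the log2 difference between pulldowns 1 and 3 was 1.25 over the members and 1.11 over the small subunit genes. Between inputs 1 and 3 it was 1.06 and 0.98, so the lists differed less in this spread than in r. These correlations are across genes, which share libraries and are not independent replicates, and the members cover a narrower range of levels than all genes. On plain CPM, 31 of the 45 members differed by at least 2-fold between the pulldowns, 30 of them higher in pulldown 3 and RpL37-1 alone higher in pulldown 1. Between the inputs 16 differed by at least 2-fold, 11 higher in input 3 and 5 higher in input 1. Among all tested genes 61.6% differed that much between the pulldowns and 41.4% between the inputs, and their directions were not counted. Plain CPM leaves out the TMM factors, 0.711 for pulldown 1 and 1.20 for pulldown 3. On TMM-scaled sizes pulldown 3 would lie lower against pulldown 1.

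**Figure D3:**
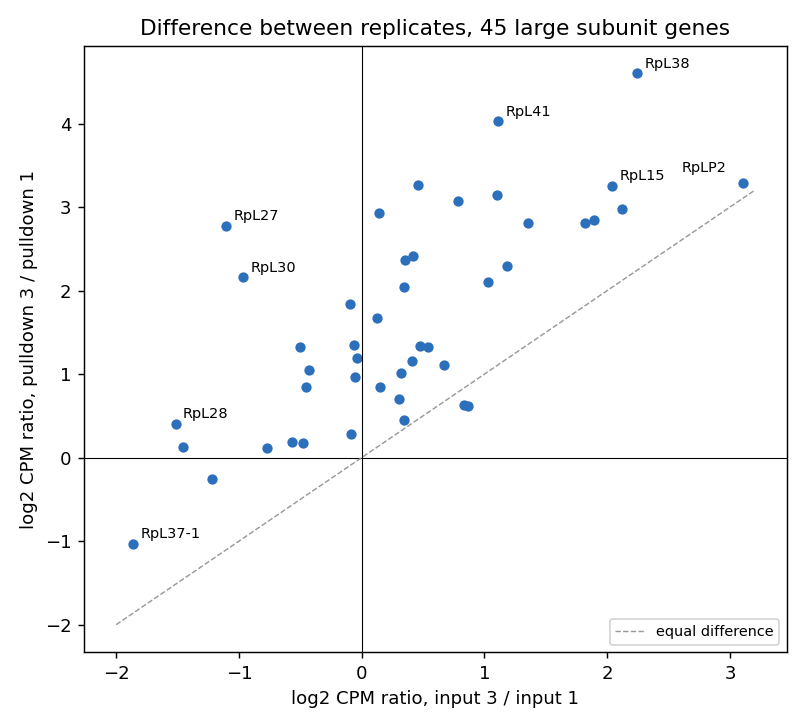
Each point is one of the 45 tested large subunit genes; the vertical axis gives the log2 CPM ratio of pulldown 3 to pulldown 1 and the horizontal axis that of input 3 to input 1. Most points lie above the dashed line of equal difference, and RpL38 (24.2-fold between the pulldowns, 4.74-fold between the inputs) lies highest.

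The members' summed share of counts moved in opposite directions in the replicates. It was 4.29% in pulldown 1 (95% Wilson interval 4.25 to 4.33%) and 10.7% in pulldown 3 (10.6 to 10.7%), against 6.25% in input 1 (6.23 to 6.28%) and 6.78% in input 3 (6.77 to 6.79%). The intervals cover counting error only. Set within a replicate, the pulldown share was 0.687 of the input share in replicate 1 and 1.57 times it in replicate 3. The group means, 7.48 ± 4.51% in the pulldowns and 6.52 ± 0.37% in the inputs (SD, n = 2), lay closer together than the pulldowns lay to each other. With 2 libraries a group, the smallest two-sided p that an exact permutation test can give is 0.333.

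The 36 matched genes of the small subunit moved in the same way, with 4.32 and 7.97% of counts in pulldowns 1 and 3, against 6.44 and 4.97% in inputs 1 and 3. Large subunit genes had 0.995 and 1.34 times the counts of small subunit genes in pulldowns 1 and 3, against 0.970 and 1.36 times in inputs 1 and 3. This ratio thus followed the replicate number and hardly differed between pulldown and input. Pulldown 1, the shallowest library, had 984979 counts and pulldown 3 had 6338436, against 4245717 in input 1 and 12684875 in input 3. The 10 leading genes of a library took 33.1% of counts in pulldown 1 and 6.70% in pulldown 3, against 13.5% in input 1 and 6.34% in input 3. With each library's 10 leading genes left out, the members' share was 6.42 and 10.7% in pulldowns 1 and 3, against 7.23 and 7.24% in inputs 1 and 3. The genes left out held 1 member, RpL41, in pulldown 3 alone, so that share is summed without RpL41.

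Markers of ovarian cell types differed between the same libraries. The 6 follicle cell markers, all of them yolk or eggshell genes, summed to 186100 and 22118 CPM in pulldowns 1 and 3, against 56623 and 13897 CPM in inputs 1 and 3. The 5 matched of 7 germline markers summed to 1986 and 2433 CPM in the pulldowns, against 3651 and 3492 CPM in the inputs. Pulldown 1, where the members' share was lowest, was thus the library with the largest share of its counts on yolk and eggshell genes, and the part of those genes in the members' share was tested only by leaving out the 10 leading genes. In bulk RNA, fewer cells of a type and less RNA per cell cannot be told apart. Muscle markers summed to 271 and 376 CPM in the pulldowns, against 261 and 461 CPM in the inputs, and markers of haemocytes, fat body and testis to at most 7.11 CPM in any library.

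**Figure D4:**
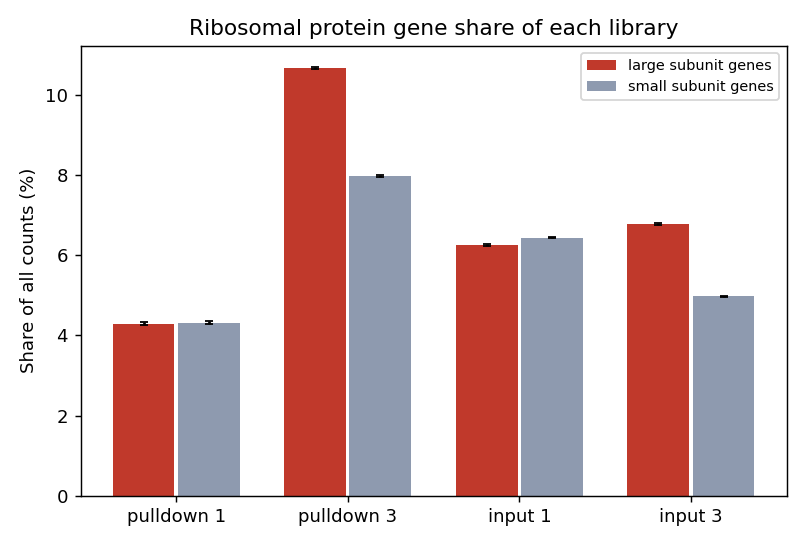
Share of all counts (%) on large subunit genes (red) and small subunit genes (grey) in each library; bars start at 0 and black marks are 95% Wilson intervals, which cover counting error only. Large subunit genes took 4.29% in pulldown 1 and 10.7% in pulldown 3, against 6.25% in input 1 and 6.78% in input 3.

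No member was called between pulldown and input. The comparison asks which ovarian mRNAs are held by the pseudouridine antibody. In edgeR's quasi-likelihood test with Benjamini-Hochberg adjustment over 7085 genes, 0 of the 45 members passed an adjusted p below 0.05 with at least a 2-fold change, as did 0% of all tested genes. At an unadjusted p below 0.05, 0 members were higher, against 0.127% of all tested genes, and 0 were lower, against 1.93%. The smallest unadjusted p among the members in this fit, which has no pairing, was 0.215, for RpL23A. With the replicate number as a block, edgeR's smallest was 0.0556, for RpL38, and RpL23A had 0.0949. That fit gave 293 of all 7085 genes an unadjusted p below 0.05. DESeq2 and edgeR's exact test also called 0 members and gave 0 an unadjusted p below 0.05. Over all genes, DESeq2 called 3 of 10544 and gave 207 an unadjusted p below 0.05, and the exact test called 0 of 7085 and gave 175. In the fit without pairing, log2 fold changes of the members, pulldown over input, ran between -1.08 and 1.02, with a median of 0.30. Their standard errors lay between 0.59 and 1.14. RpL41 had the highest, 1.02, and with the replicate number as a block it had 0.29. The median of all tested genes was -0.07. Of the 45 members, 35 had a log2 fold change above 0, against 46.2% of all tested genes.

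The replicates gave these values unequally. The log2 ratio of pulldown to input within a replicate (log2 CPM on TMM-scaled library sizes) had a median over the members of -0.01 in replicate 1 and 0.74 in replicate 3, beside -0.31 and -0.06 over all tested genes. Among genes with at least 10 counts in every library, the order in replicate 1 turned, with a median of -0.13 over the members and -0.04 over all genes. It was above 0 for 22 members in replicate 1, against 41.8% of all tested genes, and for 42 members in replicate 3, against 46.3%. The members without a ratio above 0 in replicate 3 were RpLP0, RpL23A and RpL38. In replicate 1, 9 members were at least 2-fold lower in the pulldown, against 35.3% of all tested genes. In replicate 3, 8 members were at least 2-fold higher in the pulldown, against 7.99% of all tested genes. A ratio below 0 in replicate 1 with one above 0 in replicate 3 was seen for 21 members, against 25.1% of all tested genes. The signs agreed for 23 members, with 21 above 0 in both replicates and RpL23A and RpL38 below 0 in both. The members' ratios were spread more widely in replicate 1, from -2.31 to 1.16, than in replicate 3, from -0.30 to 1.57.

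On plain CPM, both pulldowns lay above both inputs for RpL3 and RpL17 among the 45 members, against 6.21% of all tested genes, and both lay below for RpL23A alone, against 20%. On that scale, which divides by all counts, 10 of the 45 members had a ratio above 0 in replicate 1, against 2137 of all 7085 tested genes. In replicate 3 it was 42 members, against 3060 of all tested genes.

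**Figure D5:**
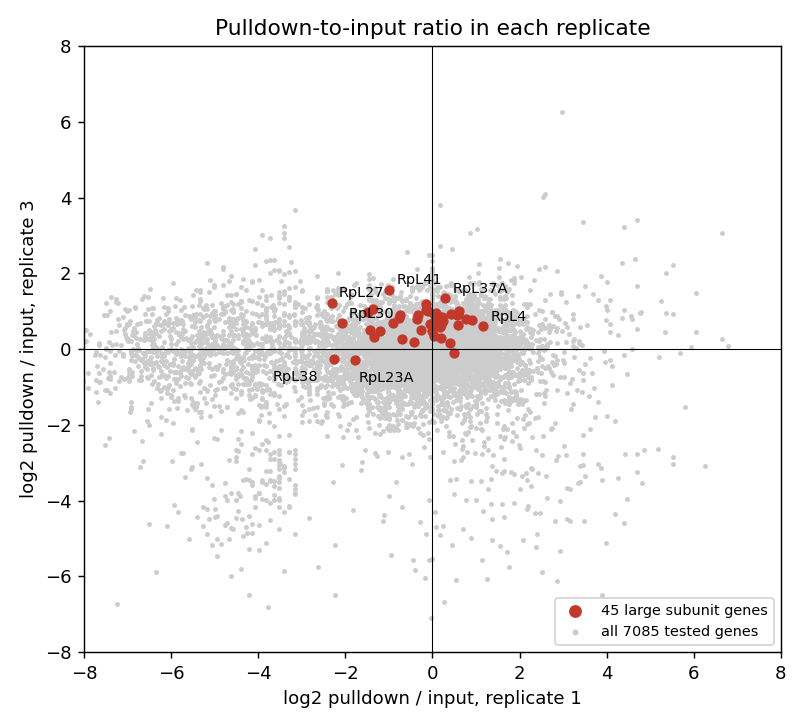
Log2 ratio of pulldown to input in replicate 1 (horizontal) and replicate 3 (vertical) for all 7085 tested genes (grey) and the 45 large subunit genes (red); 6 genes lie outside the axes. In replicate 3 the ratio is above 0 for 42 of the 45 large subunit genes, and in replicate 1 for 22.

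The other genes of the pathway were counted in the same way. Of 33 tested small subunit genes, 23 had a log2 fold change above 0, with a median of 0.35, and the medians within replicates were -0.08 in replicate 1 and 0.73 in replicate 3. Of 11 assembly factors of the large subunit, among them GTPases of the nucleolus and the export adaptor Nmd3, 5 had a log2 fold change above 0, with a median of -0.02, and the medians within replicates were -0.05 in both. None of these genes was called. The difference between the lists was not tested.

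The P stalk recruits the elongation factors. RpLP0, its base, had 1930.0 and 2971 CPM in pulldowns 1 and 3, against 1803 and 3288 CPM in inputs 1 and 3. RpLP1, one of the acidic proteins of the stalk, had 468 and 3568 CPM in the pulldowns, against 1600.4 and 1769 CPM in the inputs. RpLP2, the partner of RpLP1, had 284 and 2787 CPM in the pulldowns, against 199 and 1716 CPM in the inputs. The partners did not run together in replicate 1, where the log2 ratio was -1.37 for RpLP1 and 0.92 for RpLP2, while in replicate 3 it was 1.07 and 0.75. RpLP2 also had the widest difference between the inputs of any tested member, 8.62-fold. RpL12, beside the stalk base, had 309 and 2976 CPM in the pulldowns, against 1143 and 1569 CPM in the inputs. Like RpLP1, RpL12 was lowest in pulldown 1 and highest in pulldown 3, and all 4 stalk members overlapped between the groups.

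RpL5 and RpL11 bind the 5S rRNA and enter the subunit with it as one particle. RpL5 had 2079 and 3731 CPM in the pulldowns, against 4435 and 3235 CPM in the inputs. RpL11 had 684 and 2179 CPM in the pulldowns, against 1009 and 1098 CPM in the inputs. The log2 ratios were below 0 in replicate 1 and above 0 in replicate 3 for both, at -0.69 and 0.26 for RpL5 and -0.16 and 1.04 for RpL11. RpL10Ab forms the L1 stalk, through which spent tRNA leaves, and had 244 and 2056 CPM in the pulldowns, against 876 and 1506 CPM in the inputs. Its log2 fold change was -0.06 ± 0.90 (SE).

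Another 6 tested members line the exit tunnel or its opening. RpL4, which reaches into the tunnel, had 2381 and 3672 CPM in the pulldowns, against 1406 and 2508 CPM in the inputs. RpL4 had the highest log2 ratio of any member in replicate 1, 1.16, and 0.61 in replicate 3, and of the members with both ratios above 0 it had the highest log2 fold change, 0.87 ± 0.85 (SE, edgeR adjusted p = 0.9999). RpL17, at the tunnel wall, had 1105 and 1977 CPM in the pulldowns, against 969 and 1077 CPM in the inputs. Both pulldowns of RpL17 lay above both inputs, with 27.7 CPM between the nearest libraries. RpL26, at the tunnel exit, had 967 and 1887 CPM in the pulldowns, against 1241 and 1195 CPM in the inputs. RpL35, also at the exit, had 541 and 1944 CPM in the pulldowns, against 1347 and 1259 CPM in the inputs. RpL39, a short protein of the tunnel wall, had 159 and 656 CPM in the pulldowns, against 233 and 297 CPM in the inputs. In RpL26, RpL35 and RpL39 the inputs lay between the pulldowns.

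RpL23A, which docks factors that meet the new chain at the tunnel exit, differed from the other tunnel proteins. It had 538 and 1346 CPM in pulldowns 1 and 3, against 2436 and 1717 CPM in inputs 1 and 3, so that both pulldowns lay below both inputs. Its log2 fold change, -1.08 ± 0.80 (SE), was the lowest of the members in the fit without pairing and did not pass the test (edgeR adjusted p = 0.9999). With the replicate number as a block, edgeR gave -1.03 for RpL23A and a lower value, -1.20, for RpL38, and neither passed (adjusted p = 0.9999 for both). RpL23A shares 31.9% of its exon bases with the snoRNA host transcript Uhg7 on the same strand and 9.16% with CG7974 on the opposite strand. The strand setting of the counting is not given in the sources used here, so its values are uncertain.

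RpL3, RpL8 and RpL10 lie around the peptidyl transferase centre, where peptide bonds form. RpL3 had 3209 and 3893 CPM in the pulldowns, against 2483 and 2332 CPM in the inputs. RpL8 had 825 and 3550.2 CPM in the pulldowns, against 1142 and 2335 CPM in the inputs. RpL10, one of the last proteins to join the subunit, had 1342 and 2894 CPM in the pulldowns, against 1559 and 2475 CPM in the inputs. Only RpL3 of this group had both pulldowns above both inputs, and its log2 ratios were nearly equal, 0.77 in replicate 1 and 0.79 in replicate 3. Its log2 fold change was 0.78 ± 0.90 (SE, edgeR adjusted p = 0.9999), and an antisense RNA overlaps 18.5% of its exon bases.

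RpL24 and RpL30, like RpL41 and RpL23, lie at the contacts with the small subunit. RpL24 had 1051 and 2337 CPM in the pulldowns, against 914 and 1211 CPM in the inputs, with log2 ratios of 0.60 and 1.00. RpL30 had 312 and 1393 CPM in the pulldowns, against 1748 and 897 CPM in the inputs, with log2 ratios of -2.08 and 0.69. RpL24 thus lay above its input in both replicates and RpL30 in replicate 3 alone. RpL24 shares 21.6% and RpL30 25.1% of their exon bases with a gene on the opposite strand. RpL40, made as a fusion with ubiquitin, had 897 and 1863 CPM in the pulldowns, against 1512 and 1125 CPM in the inputs.

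RpL37A, a zinc-binding protein, had 905 and 2295 CPM in the pulldowns, against 978 and 935 CPM in the inputs. Its inputs were nearly equal, and its log2 ratios were 0.29 in replicate 1 and 1.35 in replicate 3, with a log2 fold change of 0.83 ± 0.75 (SE, edgeR adjusted p = 0.9999). RpL29, a small basic protein, had 662 and 747 CPM in the pulldowns, against 857 and 614 CPM in the inputs. With a log2 fold change of 0.14 it was the lowest of the members above 0 in both replicates. RpL38, below 0 in both, had log2 ratios of -2.26 in replicate 1 and -0.26 in replicate 3. The lowest ratio of any member in replicate 1 belonged to RpL27, at -2.31, and in replicate 3 it had 1.22. RpL27 had 398 and 2728 CPM in the pulldowns, against 2612 and 1217 CPM in the inputs, and was chosen after its values were seen. RpL37A shares 19.7% of its exon bases with an antisense RNA and RpL27 16.0% with Idh3g, on opposite strands, so the values of both are uncertain.

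Related genes among the members differed in level. RpL34a had 368 and 308 CPM in the pulldowns, against 652 and 281 CPM in the inputs. RpL34b, which encodes a closely related protein, had 222 and 1558 CPM in the pulldowns, against 314 and 803 CPM in the inputs. RpL34a was thus the higher of the pair in both libraries numbered 1 and RpL34b in both numbered 3, also per length of exon. Reads from near-identical stretches could have been placed on either gene, and their split between the pair is uncertain.

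RpL37-1 had 4002 and 1956 CPM in the pulldowns, against 5336 and 1471 CPM in the inputs, while its relative RpL37-2 had the single read in input 3. RpL10Aa, the relative of RpL10Ab, had 0 counts in each library. A count of 0 allows a level of up to 3.05 and 0.473 CPM in pulldowns 1 and 3, and up to 0.707 and 0.237 CPM in inputs 1 and 3 (3 counts per library), so that RpL10Ab and RpL37-1 supplied nearly all detected reads of their pairs. RpL7 had 2267 and 2588 CPM in the pulldowns, against 2642 and 1779 CPM in the inputs. RpL7-like, the homologue of a yeast assembly factor, shares 98.8% of its exon bases with CG34164 on the same strand, and its 0 counts give no level.

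RpL24-like, the relative of RpL24, had 212 and 344 CPM in the pulldowns, against 188 and 232 CPM in the inputs. Its log2 ratios were 0.58 in replicate 1 and 0.62 in replicate 3, with a log2 fold change of 0.60 ± 0.59 (SE), the smallest error of any member. The other 13 tested members were RpL6, RpL7A, RpL9, RpL13, RpL13A, RpL14, RpL15, RpL18, RpL28, RpL32, RpL35A, RpL36 and RpL36A, with mean input levels between 951 and 2471 RPKM. Their log2 ratios were above 0 for 7 of the 13 in replicate 1, with a range from -1.35 to 0.56, and for 13 of the 13 in replicate 3, with a range from 0.31 to 0.95. Their log2 fold changes lay between -0.30 and 0.78.

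Members were also compared by features of their genes. They lie on all major arms, 13 on 2L, 12 on 2R, 10 on 3L, 11 on 3R and 5 on X. Their median merged exon length was 927 bases, against 2186 bases over all tested genes, with a GC content of 51.5% against 49.5% and a T content, the base read as U in RNA, of 22.9% against 23.0%. Across the 45 members, the log2 ratio in replicate 1 correlated with GC content at r = 0.38 and with T content at r = -0.35, and the ratio in replicate 3 at r = 0.02 and r = -0.05. These are descriptions across genes measured in the same libraries.

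H/ACA guide RNAs direct pseudouridine to rRNA, and several lie inside these genes. Within the span of 15 members lay 31 snoRNA genes, of which 10, in 7 members, are named for pseudouridine or as H/ACA RNAs. RpL17 held 4 of them, all named for positions in the large rRNA. The 14 tested hosts had median log2 ratios of -0.04 in replicate 1 and 0.79 in replicate 3, and the 31 other tested members -0.01 and 0.71. The difference between hosts and other members was not tested. Exons of 18 tested members overlapped those of another gene.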

How the data were processed

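RNA-seq counts were analysed for 2 pulldown and 2 input libraries of wild-type ovaries, grouped by their titles. The deposited values were raw read counts for each FlyBase gene. The authors aligned reads to dm6 with HISAT2 2.1.0 and counted them with featureCounts 1.4.6, as named in the submitters' processing notes, which also list DESeq2 1.24.0. The strand setting was not given in the sources used here. Symbols, positions and exon lengths came from Ensembl release 115, which held 16647 of the 17023 identifiers; 376 stayed unnamed in the counts. Sequences came from the Release 6 genome.

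Counts were fitted in R 4.3.3 with edgeR 4.0.16 (filterByExpr, TMM, group as the only term, two-sided quasi-likelihood test, Benjamini-Hochberg adjustment). Calls needed an adjusted p below 0.05 and a 2-fold change, the cutoffs the study's methods give for RNA-seq. For pulldown against input the study names only a 2-fold cutoff. Each standard error (SE) was derived as the absolute log2 fold change divided by the square root of the test's F statistic. Log2 ratios within a replicate used a prior count of 2. CPM divided by each library's total, from 984979 to 12684875 counts. RPKM also divided by merged exon length. The scripts were tested on simulated data.

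Members and lists were chosen with earlier results of these data known. Values in all 4 libraries are given for members of fixed role groups, the 5 highest and 5 lowest levels, the 3 highest and 3 lowest log2 fold changes with equal sign in both replicates, and pairs of related genes. The values of 1 member that this rule includes are not reported here; it stays in the counts, medians and sums. By the methods, input and pulldown came from one homogenate, so equal numbers were read as pairs. Libraries of one number deviated together from their group means (r = 0.41 over all tested genes, 0.71 over the members), with 2 pairs. The alternatives tried were scaling by upper quartiles or by total counts, other filters, a replicate block, the exact test, DESeq2 1.42.0, each replicate left out, the leading genes left out and members with overlapping exons left out.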

Additional observations from a re-analysis of the deposited data

How the results depend on the processing

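No member was called under any of the 8 fits, with or without the fold threshold, while over all genes the fit without a filter called 2 and DESeq2 3, and the other fits 0. The smallest adjusted p of a member in any of them was 0.9425. With all libraries, 9 of 217 values of the 31 named tested members changed sign: RpL10Ab to 0.0562 and RpL35 to 0.0667 with upper-quartile normalisation, RpL10Ab to 0.0007 and RpL35 to 0.0271 with DESeq2, RpL29 to -0.0623, RpL37-1 to -0.19 and RpLP0 to -0.0547 with total-count normalisation, and RpL12 to -0.25 and RpLP1 to -0.15 with the replicate block. The replicate block changed no other sign among the named members, and no call. Outside the named members it moved RpL9 from 0.05 to -0.35 and RpL28 from -0.26 to 0.03. The median of the members was 0.29 with the replicate block, and RpL38 (-1.20) took the place of RpL23A (-1.03) as the lowest. Total-count normalisation moved the median of all tested genes to -0.23, against -0.07, and that of the members to 0.26, against 0.30. The members' median in replicate 1 was 0.03 with upper-quartile normalisation, where that of all genes was -0.27. With total-count normalisation it was -0.41, where that of all genes was -0.70. With at least 10 counts in every library it was -0.13, where that of all genes was -0.0383.

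Leaving out either replicate changed the sign of 15 named members; the cause was not tested. The log2 fold change then ran from -1.44 to 0.50 for RpL10Ab, -0.16 to 1.04 for RpL11, -1.49 to 0.98 for RpL12, -2.08 to 0.69 for RpL30, -0.42 to 0.19 for RpL34a, -0.10 to 1.01 for RpL34b, -0.91 to 0.68 for RpL35, -0.0122 to 0.47 for RpL37-1, -0.15 to 1.20 for RpL39, -0.35 to 0.78 for RpL40, -0.997 to 1.57 for RpL41, -0.69 to 0.26 for RpL5, -0.0661 to 0.66 for RpL8, -0.0914 to 0.50 for RpLP0 and -1.37 to 1.07 for RpLP1. The members' median ran from -0.01 without replicate 3 to 0.74 without replicate 1, and the log2 ratio of their share from -0.54 to 0.65. The span of input levels was 22.3 to 23.9 with one input left out and 9.91 without members whose exons overlap another gene, which leaves out RpL24-like.

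Depth limits pulldown 1 most: RpL38 rests there on 29 reads. Standard errors of the members were at least 0.59 in the fit without pairing and at least 0.44 with the replicate block. With 2 libraries a group, a difference the size of those seen could not be told from replicate spread.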
